A study of Mus musculus with 13 samples.

Results

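Aminoacyl-tRNA synthetases are the enzymes that load each amino acid onto its tRNA. The genes described are the 36 synthetases given by name for this account, 20 whose enzymes work in the cytosol and 16 whose symbols end in 2 and whose enzymes work in mitochondria. All 36 were on the array, among 19752 named genes, and, as the rule for choosing them asks, were found through the RefSeq accession of their probes; 35 were bright enough to be tested. Expression was measured in white (WAT) and brown (BAT) adipose tissue of male C57BL/6J mice on 1-colour Agilent arrays, and the labels give no age. BAT came from Fv2E-PERK mice given AP20187 (2 arrays) or vehicle (2). WAT came from Fv2E-PERK mice given AP20187 (3) or vehicle (2), and from untreated wild-type mice (3). AP20187 was given at 100 ng/g into the peritoneum and tissue was taken after 12 h, per the labels' protocols, which name muscle where the samples are labelled fat. Fv2E-PERK joins the kinase part of PERK to a domain that AP20187 pairs. The series' text writes the transgene as mAP::Fv2E-PERK and does not spell out mAP, so the cells in which it is made are not given in the sources used here. No wild-type mouse received AP20187, so the drug and the kinase it switches on cannot be told apart.

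In textbook accounts, cytosolic and mitochondrial protein synthesis use separate sets of synthetases, both encoded in the nucleus, with Gars and Kars each making the enzyme of both compartments. PERK, a kinase of the endoplasmic reticulum stress response, phosphorylates eIF2alpha, which lowers protein synthesis in general while raising translation of the transcription factor ATF4. ATF4 binds C/EBP-ATF response elements and switches on genes of amino acid supply, among them many cytosolic synthetases and few of the mitochondrial ones. Brown adipocytes burn fat for heat in abundant mitochondria, whose own ribosomes need the mitochondrial set.

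The cytosolic members were split into textbook ATF4 targets (12 genes: Aars, Cars, Eprs, Gars, Iars, Lars, Mars1, Nars, Sars, Tars, Wars and Yars) and the other 8 (Dars, Farsa, Farsb, Hars, Kars, Qars, Rars and Vars). To set the groups side by side in sequence, promoters were searched on both strands for TGATGNAAN, a form of the C/EBP-ATF response element of 9 bases. RefSeq promoters of build GRCm38.p6, each of 300 bases from 250 before to 50 after the annotated start, were matched for 27 of the 36 members. The letters occurred in 5 of 13 matched cytosolic promoters (38.5%), which were 5 of 8 among the ATF4 targets (62.5%) and 0 of 5 among the other cytosolic members, and in 0 of 14 mitochondrial ones. Of all 32851 promoters of that length, 1299 held them (3.95%). The match describes letters in this window only. Shown are the 4 promoters with a match whose genes had the highest log2 change in BAT. Beside them is 1 mitochondrial promoter without a match, that of Wars2, chosen because its change in BAT was the lowest. All are printed 5' to 3' on the gene's strand, with the matched bases in capitals (a match on the reverse strand shows as its reverse complement). Iars lies on chr13:49681880-49682179 (+ strand), Yars on chr4:129189653-129189952 (+), Tars on chr15:11399609-11399908 (-), Aars on chr8:111033592-111033891 (+) and Wars2 on chr3:99140840-99141139 (+).
Iars: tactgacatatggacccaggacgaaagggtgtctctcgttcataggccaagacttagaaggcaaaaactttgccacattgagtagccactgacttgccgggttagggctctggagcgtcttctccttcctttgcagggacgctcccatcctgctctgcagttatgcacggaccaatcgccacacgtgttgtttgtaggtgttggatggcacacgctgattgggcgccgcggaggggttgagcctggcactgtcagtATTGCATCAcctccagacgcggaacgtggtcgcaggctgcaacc
Yars: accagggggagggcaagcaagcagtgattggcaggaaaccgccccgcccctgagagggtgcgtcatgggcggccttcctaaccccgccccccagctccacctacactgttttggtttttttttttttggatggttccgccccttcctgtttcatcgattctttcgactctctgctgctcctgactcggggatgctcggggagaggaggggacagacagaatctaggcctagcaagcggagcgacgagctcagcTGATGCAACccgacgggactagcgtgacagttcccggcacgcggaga
Tars: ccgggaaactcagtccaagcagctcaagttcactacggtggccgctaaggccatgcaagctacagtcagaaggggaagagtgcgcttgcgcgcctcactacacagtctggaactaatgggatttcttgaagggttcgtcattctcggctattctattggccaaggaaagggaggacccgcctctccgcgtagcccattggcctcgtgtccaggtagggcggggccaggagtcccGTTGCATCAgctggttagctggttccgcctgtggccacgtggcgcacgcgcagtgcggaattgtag
Aars: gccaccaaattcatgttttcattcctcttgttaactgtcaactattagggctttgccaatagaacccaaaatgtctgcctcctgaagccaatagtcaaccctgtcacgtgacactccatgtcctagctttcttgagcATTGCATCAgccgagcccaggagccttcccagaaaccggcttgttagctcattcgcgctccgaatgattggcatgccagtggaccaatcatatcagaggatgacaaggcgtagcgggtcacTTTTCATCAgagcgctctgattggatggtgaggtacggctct
Wars2: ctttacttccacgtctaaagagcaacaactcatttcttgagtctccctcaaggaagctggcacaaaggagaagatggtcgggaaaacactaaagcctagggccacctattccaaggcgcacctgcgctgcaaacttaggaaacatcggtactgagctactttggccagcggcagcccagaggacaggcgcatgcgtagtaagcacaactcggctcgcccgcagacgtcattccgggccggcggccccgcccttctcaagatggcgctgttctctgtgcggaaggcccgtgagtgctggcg
The site began 6 bases after the annotated start in Iars, 3 after it in Yars and at offset -16 in Tars, and Aars held one site at offset -113 and another 8 bases after it. Gars, whose promoter also matched and is not shown, had its site at offset -31, where negative offsets lie before the start. The ATF4 targets Eprs, Mars1 and Sars were matched to a promoter without these letters.

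Levels below are log2 signals, each array's 75th percentile subtracted. Changes are on the log2 scale with the standard error (SE) from limma, and p-values were adjusted by the Benjamini-Hochberg method over all 24472 features tested. Signal over background differed between groups: 46.4% of spots were well above background on both BAT arrays with AP20187 and 46.8% and 49.0% with vehicle, against 49.0% to 51.5% in WAT with AP20187, 61.2% and 64.0% in WAT with vehicle and 57.9% to 60.6% in wild type. The labels of fat were set beside marker genes. Adipoq, the adipocyte hormone adiponectin, measured 8.25 to 9.46 on all 12 arrays, and Ucp1, the heat-producing protein of brown adipocytes, 9.87 to 10.63 in BAT and -7.23 to -3.41 in WAT. Of the other brown adipocyte markers, Cidea, Ppargc1a, Cox8b and Elovl3 were higher on every BAT array than on any WAT array, Elovl3 narrowly (-0.84 against -1.18). Dio2 overlapped (-1.57 to 3.53 in BAT, -2.02 to 0.52 in WAT). Zic1 did not separate the tissues (-2.17 to -1.85 in BAT, -2.22 to -1.45 in WAT). Areas of weak signal covered 4.25%, 7.84% and 1.55% of spots on WAT AP20187 arrays 1, 2 and 3 and 0% on the other arrays, and 3 members had their spot in one: Mars1 and Hars2 on array 1 and Rars on array 2. In bulk tissue, fewer cells of a type and less RNA per cell cannot be told apart.

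In brown fat after AP20187, all 12 textbook ATF4 targets among the cytosolic synthetases had a positive log2 change, whereas the other cytosolic and the mitochondrial members lay on both sides of zero. The median change was 0.74 for the 12 ATF4 targets, 0.00 for the other 8 cytosolic members (4 positive, 4 negative), -0.05 for the 15 tested mitochondrial members (7 positive, 8 negative) and -0.04 for all features, of which 45.5% were positive. None of the 35 members passed limma's threshold (adjusted p under 0.05), while 2 of all 24472 features did (0.00817%). At an unadjusted p under 0.05 there were 7 members, 5 of them cytosolic and higher, against 1802 features in all (7.36%). Both AP20187 arrays lay above both vehicle arrays for 7 of the 12 ATF4 targets, 1 of the other 8 cytosolic members and 3 of the 15 mitochondrial ones, against 15.8% of all features.

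**Figure D1:**
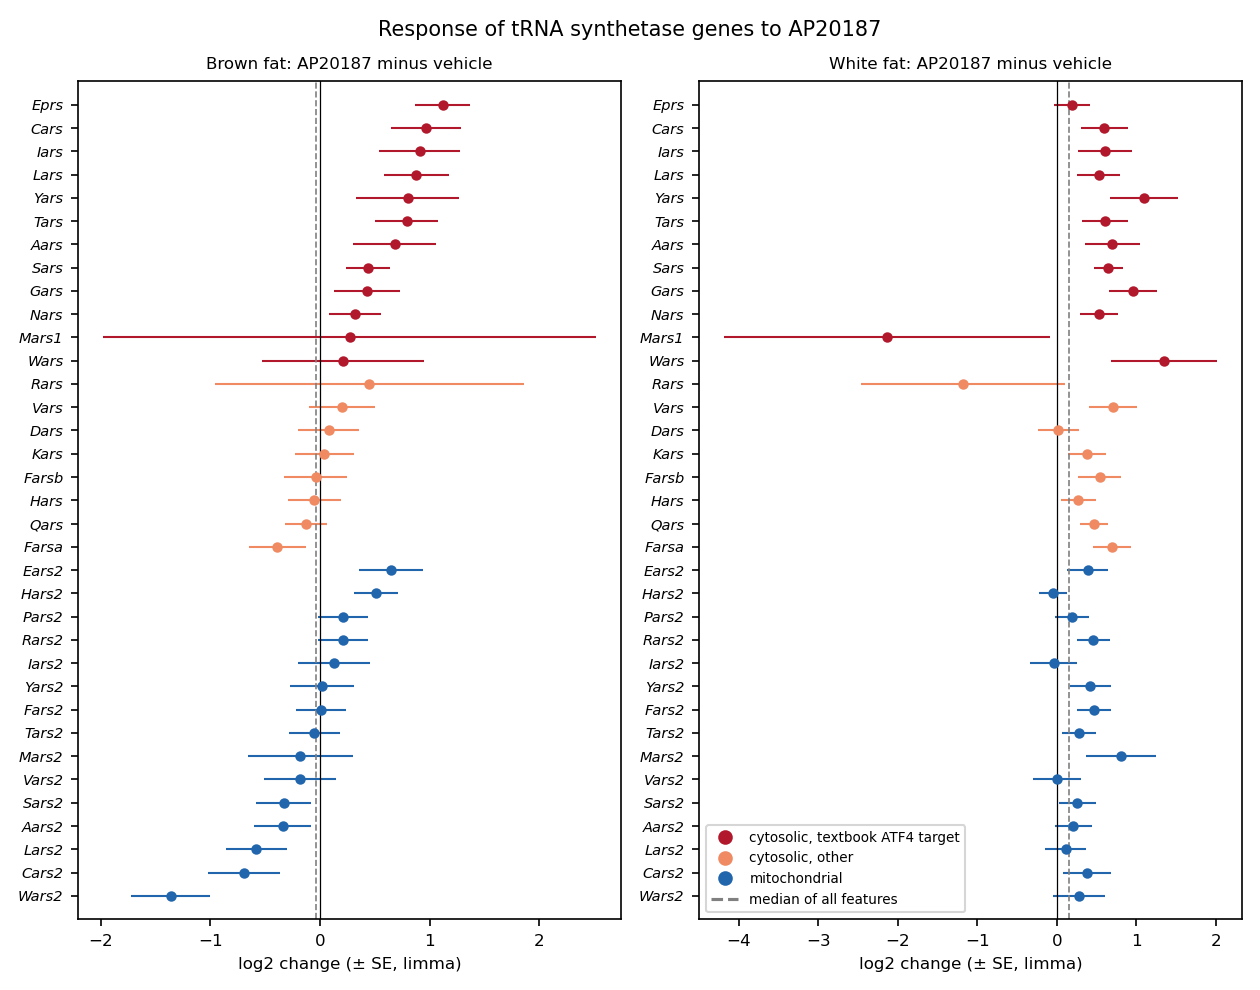
Log2 change after AP20187 (AP20187 minus vehicle, ± SE from limma, x axis) of the 35 tested synthetase genes (y axis), in brown fat on the left and white fat on the right. The 12 textbook ATF4 targets, in dark red, are all right of zero in brown fat, with a median of 0.74, and the long bars of Mars1 and Rars come from single stray spots in white fat.

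The largest difference among cytosolic members in brown fat was in Eprs, the joint enzyme for glutamate and proline. It measured 1.93 and 2.64 with AP20187 and 1.14 and 1.20 with vehicle. Both AP20187 arrays were higher than both vehicle arrays, by 2.17-fold (log2 change 1.12, SE 0.25), with an adjusted p of 0.313 in limma. Cars, which charges tRNA with cysteine, measured 4.0 and 4.93 with AP20187 and 3.84 and 3.15 with vehicle (1.96-fold, SE 0.32, adjusted p 0.508 in limma). The first AP20187 array lay nearer to the higher vehicle array than the vehicle arrays lay to each other. Iars, for isoleucine, measured 3.02 and 4.25 with AP20187 and 2.80 and 2.64 with vehicle (1.88-fold, SE 0.37, adjusted p 0.633 in limma). Lars, for leucine, measured 3.49 and 4.41 with AP20187 and 3.12 and 3.01 with vehicle (1.84-fold, SE 0.30, adjusted p 0.51 in limma). Neither gene's groups overlapped, and in both the second AP20187 array was the higher one.

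Tars, for threonine, had 3.57 and 4.44 with AP20187 and 3.39 and 3.05 with vehicle (1.73-fold, SE 0.29, adjusted p 0.591 in limma). Aars, for alanine, had 4.37 and 5.58 with AP20187 and 4.48 and 4.10 with vehicle, so its groups overlapped (log2 change 0.68, SE 0.38, adjusted p 0.784 in limma). Yars, for tyrosine, measured -3.66 and -2.15 with AP20187 and -3.36 and -4.04 with vehicle. Its probe was well above background on 1 of 2 AP20187 arrays and on neither vehicle array (means -2.90 with AP20187 and -3.70 with vehicle as measured, adjusted p 0.803 in limma). The dim vehicle signal was raised, on each array where needed, to the least signal among probes that were well above background there. The AP20187 mean then lay 1.55-fold higher. That is not a lower bound, since the AP20187 mean includes the array that was not above background. With 1 array left out at a time, the log2 change of Yars fell as low as 0.04. The remaining ATF4 targets (Sars, Gars, Nars, Mars1 and Wars) had changes between 0.21 and 0.44. Mars1 and Rars had SEs of 2.25 and 1.41 here, since the spread is shared with their stray spots in WAT, and 0.19 and 0.20 with weak areas left out.

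**Figure D2:**
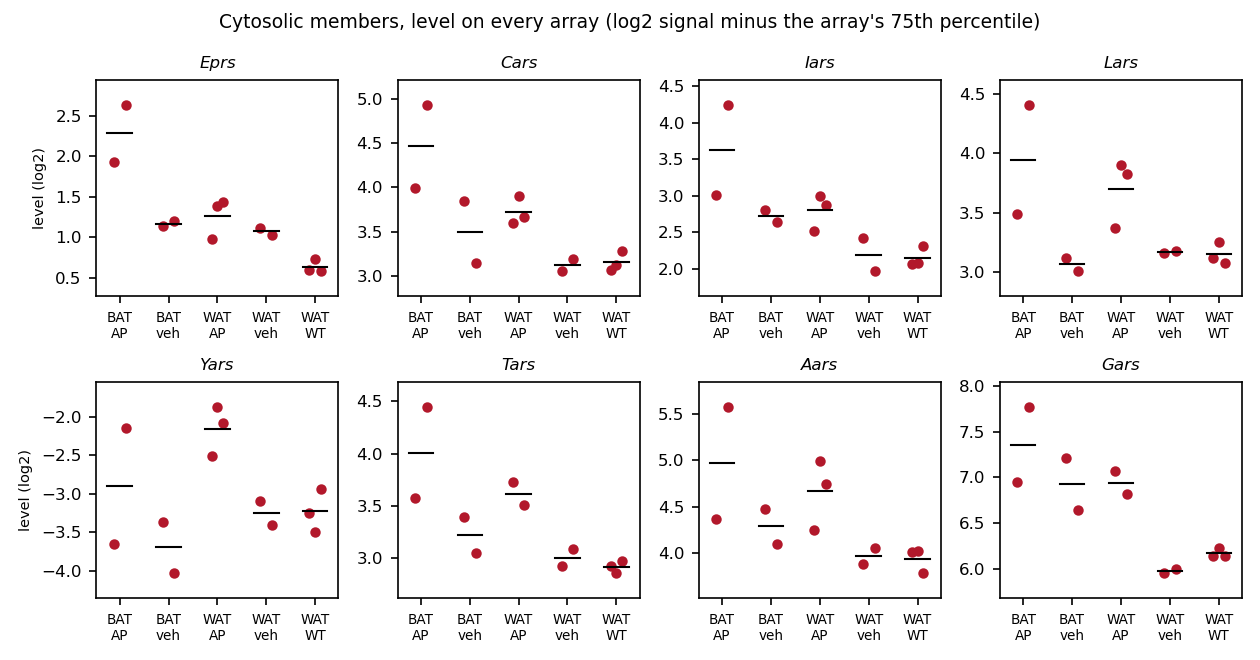
Level of 8 cytosolic members on every array (y axis, log2 signal minus the array's 75th percentile), by group (x axis, BAT and WAT with AP20187 or vehicle, and wild-type WAT); bars are group means. In brown fat 1 of the 2 AP20187 points stands above both vehicle points in each panel, and in Aars, Yars and Gars the other one lies between them.

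BAT AP20187 array 2 carried most of the difference. The median deviation of the ATF4 targets from the BAT vehicle mean was 0.18 on AP20187 array 1 and 1.26 on array 2, against 0.13 and -0.13 on vehicle arrays 2 and 3. Without AP20187 array 2 the median change of the ATF4 targets was 0.18, with 10 of 12 positive, and that of all 20 cytosolic members was 0.06. Without AP20187 array 1 these were 1.26 and 0.60, and without vehicle array 3 they were 0.48 and 0.22. Of 6 comparators of the stress response 0 passed in limma and 4 had an unadjusted p under 0.05, and those named next were also higher on AP20187 array 2 than on array 1. Trib3, a pseudokinase, measured 6.47 and 8.20 with AP20187 and 3.0 and 2.56 with vehicle (log2 change 4.55, SE 0.62, adjusted p 0.248 in limma). Chac1, which degrades glutathione, measured 2.27 and 4.03 with AP20187 and 0.24 and -0.75 with vehicle (3.40, SE 0.60, adjusted p 0.265 in limma). Fgf21, a stress hormone, overlapped between groups, with -1.14 and 3.18 with AP20187 and -0.21 and -2.23 with vehicle. Atf4 itself, named after its values were seen, overlapped between groups too, at 7.47 and 8.43 with AP20187 and 7.71 and 6.35 with vehicle.

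**Figure D3:**
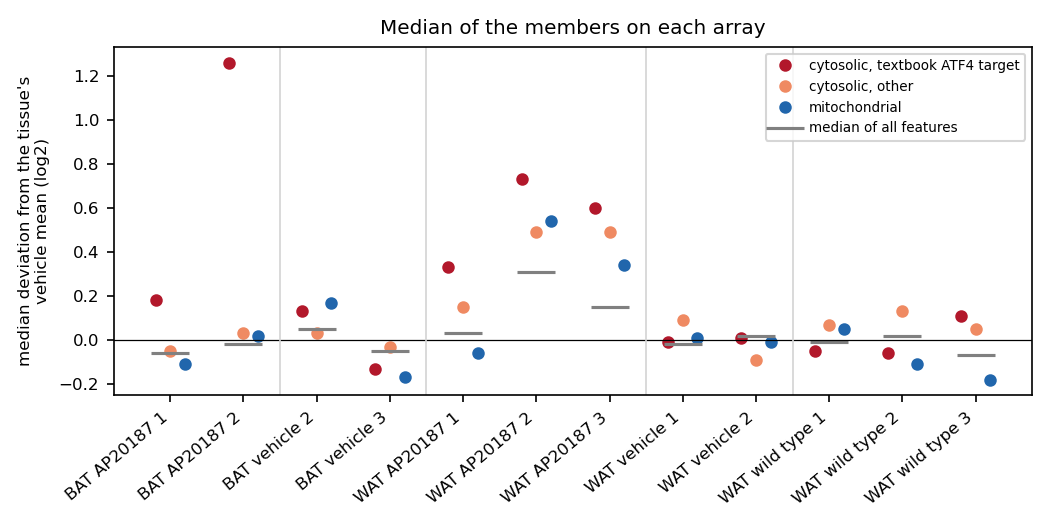
Median deviation of the members from the vehicle mean of their tissue (y axis, log2) on each of the 12 arrays (x axis), for textbook ATF4 targets, other cytosolic and mitochondrial members; grey bars are the median of all features. BAT AP20187 array 2 stands at 1.26 for the ATF4 targets, while array 1 stands at 0.18.

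Marker lists of other cells did not separate the BAT groups. The skeletal muscle list (10 genes, 9 or 10 above background on each BAT array) averaged 4.45 and 3.51 with AP20187 and 1.01 and 5.23 with vehicle. The macrophage list (7 genes measured, 6 above background on each BAT array) averaged 0.49 and 0.04 after AP20187, against 0.11 and 1.09 after vehicle. The lymphocyte list averaged -3.51 to -1.42 over all 12 arrays. The part of these cells in the changes of the synthetases was not tested. Among the cytosolic members, enzymes of the multisynthetase complex, a particle that holds several synthetases together, had a median change of 0.36 (7 of 8 positive), and those outside it 0.38 (9 of 12 positive). By the class of catalytic domain, the median was 0.62 for the 10 cytosolic members of class I and 0.20 for the 10 of class II. The class I set holds 7 of the 12 ATF4 targets, so class and target status overlap.

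Among the mitochondrial members in brown fat, Wars2, the mitochondrial enzyme for tryptophan, had the largest difference. It measured -2.48 and -1.96 with AP20187 and -0.79 and -0.94 with vehicle, which was 2.56-fold lower (log2 change -1.36, SE 0.36, adjusted p 0.373 in limma). Both AP20187 arrays lay below both vehicle arrays, but the gene's other probe had a mean change of 0.15. Cars2 measured 1.75 and 1.97 with AP20187 and 2.85 and 2.25 with vehicle (-0.69, SE 0.33, adjusted p 0.717 in limma), and its other probe had -0.17. Lars2, for leucine, measured 2.92 and 2.98 with AP20187 and 3.60 and 3.45 with vehicle (-0.58, SE 0.28, adjusted p 0.728 in limma). Those 3 were among the 5 mitochondrial members whose AP20187 arrays both lay below the vehicle arrays, against 21.5% of all features. Ears2, for glutamate, went the other way with overlap, at 0.95 and 1.45 with AP20187 and 0.97 and 0.12 with vehicle (0.65, SE 0.29, adjusted p 0.682 in limma).

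Genes that work with the synthetases were read from lists of the same pathway. Of 4 genes for complex scaffolds and tRNA export, 4 had a positive change in BAT and 0 passed in limma, with 2 at an unadjusted p under 0.05. Of all features, 45.5% were positive and 7.36% had an unadjusted p under 0.05. Xpot, which carries tRNA out of the nucleus, was the highest, with 2.41 and 3.11 with AP20187 and 1.91 and 1.80 with vehicle (1.87-fold, SE 0.25, adjusted p 0.382 in limma). Aimp1 and Eef1e1, scaffold proteins of the complex, each had a change of 0.45. The 5 cytosolic elongation factors had a median change of -0.15 and the 8 genes of mitochondrial charging and elongation one of -0.22, with 0 called in limma and 0 at an unadjusted p under 0.05 in both lists. Among these 8 genes Qrsl1, part of the enzyme that makes mitochondrial glutaminyl-tRNA, had -0.53 and Tsfm, an elongation factor, -0.40.

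In white fat after AP20187, most synthetases of both kinds had a positive log2 change with the probes and scaling used here. The median was larger among the cytosolic ones. The median change was 0.57 for the 20 cytosolic members (18 positive), 0.28 for the 15 tested mitochondrial members (12 positive, 2 negative) and 0.15 for all features, of which 58.7% were positive. None of the 35 passed limma's threshold, against 550 of all features (2.25%), and the smallest adjusted p was 0.0924. At an unadjusted p under 0.05 there were 6 members, all cytosolic and higher, against 5453 features (22.3%). All 3 AP20187 arrays, or those with a value, lay above both vehicle arrays for 13 cytosolic and 4 mitochondrial members, against 26.2% of all features. Among the 13, Gars, Nars and Tars had no value on AP20187 array 1 and Vars none on array 2. With an array missing, groups separate more easily, so these genes are not like for like with that share. The ATF4 targets had a median of 0.61 (11 of 12 positive) and the other 8 cytosolic members 0.42 (7 of 8 positive). Other probes of mitochondrial members had -0.14 (Cars2), -0.18 (Iars2), -1.08 (Pars2), -0.21 (Vars2), -0.86 (Wars2) and 0.24 (Tars2). The probes used had 0.38, -0.04, 0.19, 0, 0.28 and 0.28. With the mean of a gene's probes the mitochondrial median was 0.21 (10 of 15 positive). Scaled on probes detected on all 12 arrays, the cytosolic median was 0.30 (16 of 20 positive) and the mitochondrial one 0.04 (9 of 15). The median of all features shifted to -0.09 there. Relative to it, the cytosolic median then lay 0.39 above and the mitochondrial median 0.13 above, against 0.42 and 0.13 in the scaling used here. With quantile scaling the cytosolic median was 0.33 and lay 0.23 above that of all features. With normexp and quantile it was 0.29 and also lay 0.23 above. The mitochondrial medians then lay 0.12 and 0.13 above. The filter on dim probes mattered more for the mitochondrial members. With the stricter filter the median of all features was 0.26, and the cytosolic and mitochondrial medians differed from it by 0.33 and 0.01. With no filter it was 0.27, and they differed from it by 0.30 and -0.01.

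Sars, which charges tRNA with serine, had the smallest p-value. It measured 4.95, 4.87 and 4.76 with AP20187 and 4.11 and 4.31 with vehicle (1.57-fold, SE 0.18, adjusted p 0.0924 in limma). All AP20187 arrays were above both vehicle arrays and the 3 values lay close together. Gars, for glycine, measured 7.07 on AP20187 array 2 and 6.82 on array 3, against 5.95 and 6.0 with vehicle. Its spot on AP20187 array 1 was dropped as an outlier, and the change was 1.95-fold (SE 0.30, adjusted p 0.123 in limma). Yars measured -2.51, -1.87 and -2.08 with AP20187 and -3.09 and -3.41 with vehicle (2.15-fold, SE 0.43, adjusted p 0.183 in limma), with no overlap. Vars, for valine, had 1.77 and 1.16 on AP20187 arrays 1 and 3, with array 2 dropped, and 1.02 and 0.48 with vehicle (1.64-fold, SE 0.30, adjusted p 0.217 in limma).

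Wars, for tryptophan, which is also induced by interferon, had the highest positive change, 2.54-fold, but it rested on 1 array. It measured 7.19, 5.08 and 5.04 with AP20187, 4.38 and 4.46 with vehicle, and 4.24, 4.06 and 5.59 in wild type (SE 0.67, adjusted p 0.275 in limma). Without AP20187 array 1 the log2 change was 0.64, against 1.35 with it. The gene's other probe had a mean change of 0.95. Mars1, for methionine, measured -6.04, 2.18 and 2.03 with AP20187 and 1.68 and 1.39 with vehicle. The low value was the spot in the weak area of array 1 and was not well above background; the log2 change was -2.14 (SE 2.05, adjusted p 0.549 in limma) with it and 0.46 (SE 0.19, adjusted p 0.213 in limma) with weak areas left out. Rars, for arginine, measured -0.88, -5.72 and -0.42 with AP20187 and -1.10 and -1.22 with vehicle, and its low spot lay in the weak area of array 2. Its log2 change was -1.18 (SE 1.28, adjusted p 0.597 in limma) with that spot and 0.46 (SE 0.20, adjusted p 0.232 in limma) with weak areas left out, which put 19 of the 20 cytosolic members above zero.

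Among mitochondrial members in white fat the differences were smaller. Mars2 measured -2.85, -1.56 and -1.80 with AP20187 and -2.87 and -2.89 with vehicle (1.75-fold, SE 0.44, adjusted p 0.31 in limma), with array 1 at the vehicle level. Fars2, for phenylalanine, measured 4.26, 4.80 and 4.33 with AP20187 and 3.93 and 4.05 with vehicle (1.39-fold, SE 0.21, adjusted p 0.231 in limma). Rars2 measured 2.78, 3.49 and 3.12 with AP20187 and 2.66 and 2.68 with vehicle (1.38-fold, SE 0.21, adjusted p 0.239 in limma). For both genes all AP20187 arrays were above both vehicle arrays, and array 1 was the nearest to them. Yars2 overlapped, at 1.37, 2.18 and 1.76 with AP20187 and 1.45 and 1.26 with vehicle (1.34-fold, SE 0.26, adjusted p 0.379 in limma). Nars2, for asparagine, was not tested: its probe was well above background on none of the 3 AP20187 arrays and on 1 of 2 vehicle arrays.

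**Figure D4:**
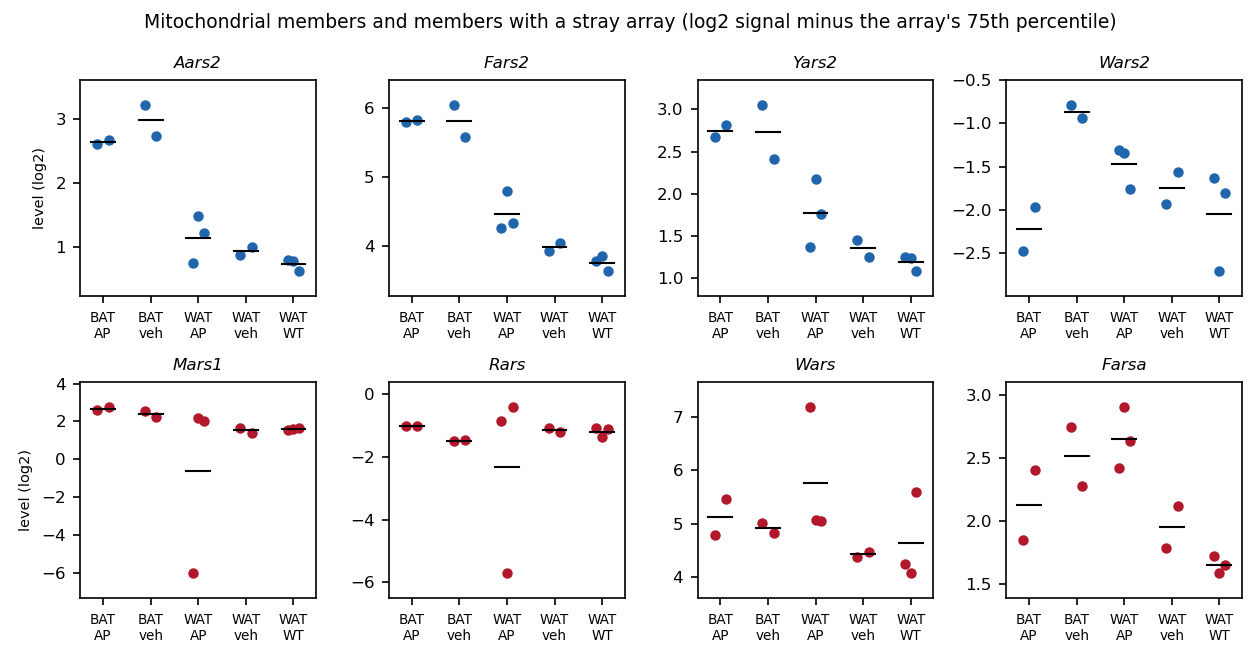
Level of 4 mitochondrial members (upper row) and 4 cytosolic members (lower row) on every array (y axis, log2 signal minus the array's 75th percentile), by group (x axis); bars are group means. Aars2, Fars2 and Yars2 are higher in all brown fat points than in any white fat point, Mars1 and Rars each have 1 stray WAT AP20187 point at -6.04 and -5.72, and Wars has 1 high WAT AP20187 point at 7.19.

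The 3 WAT AP20187 arrays differed in what else they contained. The epididymis list averaged 8.43, 0.10 and -5.08 on AP20187 arrays 1, 2 and 3, with 9, 9 and 1 of its 9 genes above background, against -5.28 and -5.90 on the vehicle arrays, with 3 and 1 above background. Array 1 also had the lowest average of all WAT arrays for adipocyte (6.13, the others 6.97 to 8.24), macrophage (0.64, the others 2.03 to 2.98) and endothelial markers (0.48, the others 1.84 to 2.18). The averages leave out dropped spots, so they do not cover the same genes and their distances are not like for like. Array 1 had no value for Fabp4 (9.64 to 10.31 on the other WAT arrays), Kdr (3.53 to 4.85), Crisp1 and Lcn9, and array 2 none for Lipe. Csf1r, a macrophage marker, measured -0.97 on array 1 and 5.05 to 5.97 on the other WAT arrays. The skeletal muscle list averaged -2.87, -0.75 and -3.26 on AP20187 arrays 1, 2 and 3, with 6, 9 and 5 of 10 genes above background, against -3.27 and -3.18 on the vehicle arrays, with 7 on each. Wild-type array 3 also held an epididymal transcript, Crisp1 at 6.68, with 5 of the 9 genes above background. The part of these cells in the values of the synthetases was not tested. With arrays 1 and 2 both left out, the cytosolic median was 0.56 (20 of 20 positive) and the mitochondrial one 0.34 (13 of 15), on the single array left. Vehicle array 2, the only vehicle array on the slide of the AP20187 arrays, had the highest liver markers of the WAT arrays (4.11, the others -0.97 to 1.76), whose part was not tested. Within that slide, against vehicle array 2 alone, the cytosolic median was 0.53 (18 of 20 positive) and the mitochondrial one 0.24 (14 of 15). Without AP20187 array 1, Farsb, a subunit of the cytosolic enzyme for phenylalanine, passed the threshold (log2 change 0.81, SE 0.19, adjusted p 0.0437 in limma).

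Of the partner genes in white fat, the cytosolic elongation factors had a median change of 0.76: 5 of 5 had a positive change and 2 rose past the threshold. Of all features, 58.7% were positive and 1.75% were called higher. Eef1b2, a nucleotide exchange factor that recharges the carrier of aminoacyl-tRNA, measured 7.19, 6.99 and 6.55 with AP20187 and 5.81 and 6.01 with vehicle (2.0-fold, SE 0.20, adjusted p 0.0478 in limma). Eef1g, a subunit of the same exchange complex, measured 5.32, 5.28 and 5.36 with AP20187 and 4.59 and 4.53 with vehicle (1.69-fold, SE 0.14, adjusted p 0.0458 in limma). Both kept a positive change, but each was called under 6 of 27 alternatives; 0 of the 5 factors were called without any 1 wild-type, BAT or WAT vehicle array, without AP20187 array 2, without both epididymal arrays or weak areas, or with quantile scaling, detected probes, the slide as a fixed block or only the arrays compared. All 4 scaffold and export genes had positive changes, from 0.58 in Xpot to 0.83 in Aimp1 (SE 0.18, adjusted p 0.051 in limma), with 0 called and 3 at an unadjusted p under 0.05. The 8 genes of mitochondrial charging and elongation had a median of 0.34, with 0 called and 0 at an unadjusted p under 0.05. Of 6 comparators of the stress response, Fgf21 had the largest difference, at -0.61, 0.40 and 0.44 with AP20187 and -4.67 and -3.87 with vehicle (20.4-fold, SE 1.12, adjusted p 0.0747 in limma), while Atf4 had a log2 change of 0.90 and Asns, which makes asparagine, one of 0.72; 0 of the 6 passed in limma and 2 had an unadjusted p under 0.05.

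Whether the responses of the tissues differed was tested as the WAT change minus the BAT change. In limma 0 members and 0 of all features (0%) passed, while 5 members and 4037 features (16.5%) had an unadjusted p under 0.05. Wars2 came nearest, with a change of 0.28 in WAT and -1.36 in BAT (difference 1.63, SE 0.49, adjusted p 0.162). Its other probe had the opposite order, with -0.86 in WAT and 0.15 in BAT, and the mean of both probes gave a difference of 0.31. Cars2 had 0.38 in WAT and -0.69 in BAT (difference 1.07, SE 0.45, adjusted p 0.282), whereas its other probe had -0.14 in WAT and -0.17 in BAT. Among cytosolic members, Farsa, a subunit of the enzyme for phenylalanine, had 0.70 in WAT and -0.39 in BAT (difference 1.09, SE 0.36, adjusted p 0.188), and Eprs had 0.19 in WAT and 1.12 in BAT (difference -0.92, SE 0.34, adjusted p 0.23). Wars differed by 1.14 (SE 1.0, adjusted p 0.629), and the differences of Mars1 (-2.42) and Rars (-1.63) rest on their stray spots, being 0.18 and 0.01 with weak areas left out. The difference was positive for 58.3% of all features. The cytosolic minus the mitochondrial median was 0.29 in WAT and 0.43 in BAT.

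In the vehicle groups, brown and white fat were set against each other. Brown fat with vehicle, set against white fat with vehicle, had a positive log2 change in 15 of the 15 tested mitochondrial synthetases, and 10 of them rose past the threshold. Of all features 23.4% were called, 14.3% higher and 9.17% lower, and 54.9% were positive. Both BAT arrays lay above both WAT arrays for 13 of the 15 and for 13 of the 20 cytosolic members, against 39% of all features, and below them for 3 cytosolic members, against 30%. The median change was 1.06 for the mitochondrial members, 0.38 for the 20 cytosolic members, of which 0 passed in limma and 4 had an unadjusted p under 0.05, and 0.10 for all features. With quantile scaling, normexp and quantile, or scaling on detected probes, the mitochondrial median was 1.0, 0.89 or 0.82 and the cytosolic one 0.12, 0.10 or 0.14. These lay 1.0, 0.89 or 0.95 and 0.12, 0.10 or 0.27 above the median of all features, which was -0.14 when scaled on detected probes. In the authors' value table they were 0.26 (11 of 15 positive) and -0.42 (2 of 20 positive), and the median of all features was also negative there (-0.64). Relative to it, the mitochondrial median lay 0.90 above and the cytosolic one 0.22 above, against 0.95 and 0.27 in the scaling used here. With the stricter filter on dim probes they lay 0.83 and 0.16 above the median of all features, and with no filter 0.67 and 0.02 above. All BAT arrays share a slide that holds no WAT array, so slide and tissue cannot be told apart.

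**Figure D5:**
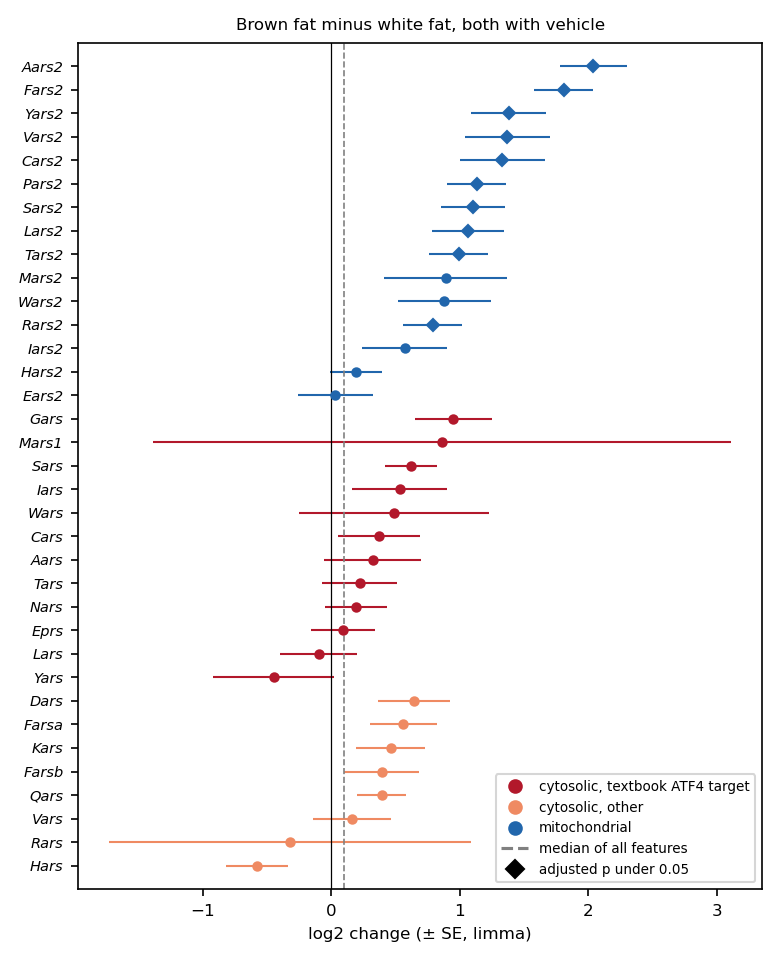
Log2 change between brown and white fat, both with vehicle (brown minus white, ± SE from limma, x axis), of the 35 tested synthetase genes (y axis); diamonds mark an adjusted p under 0.05. All 10 diamonds are mitochondrial members, between 0.79 and 2.04.

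Aars2, the mitochondrial enzyme for alanine, had the largest change. It measured 3.22 and 2.74 in BAT and 0.88 and 1.01 in WAT (4.10-fold, SE 0.26, adjusted p 0.0011 in limma). Fars2 measured 6.04 and 5.57 in BAT and 3.93 and 4.05 in WAT (3.52-fold, SE 0.23, adjusted p 0.00116 in limma). For both genes the distance between tissues was several times that between arrays of a tissue. Yars2, for tyrosine, measured 3.05 and 2.41 in BAT and 1.45 and 1.26 in WAT (2.60-fold, SE 0.29, adjusted p 0.0101 in limma). Vars2, for valine, measured 0.90 and 0.79 in BAT and -0.60 and -0.44 in WAT (2.58-fold, SE 0.33, adjusted p 0.0173 in limma). Cars2, for cysteine, measured 2.85 and 2.25 in BAT and 1.29 and 1.15 in WAT (2.52-fold, SE 0.33, adjusted p 0.0206 in limma). These 3 rose in BAT with no overlap, although the other probe of Cars2 had a change of 0.39, against 1.33 for the one used; the other probe of Vars2 had 1.53.

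Pars2, for proline, measured 1.94 and 2.04 in BAT and 0.78 and 0.94 in WAT (2.19-fold, adjusted p 0.00853 in limma). Sars2, for serine, measured 1.53 and 1.20 in BAT and 0.42 and 0.10 in WAT (2.15-fold, adjusted p 0.014 in limma). Lars2 measured 3.60 and 3.45 in BAT and 2.55 and 2.39 in WAT (2.08-fold, adjusted p 0.0271 in limma). All BAT arrays of these genes lay above all WAT arrays with vehicle. Tars2, for threonine, measured 4.99 and 4.75 in BAT and 3.75 and 4.0 in WAT (1.99-fold, adjusted p 0.014 in limma). Rars2 measured 3.53 and 3.38 in BAT and 2.66 and 2.68 in WAT (1.73-fold, adjusted p 0.039 in limma). Of the 5 that did not pass, Mars2 (0.89, adjusted p 0.217) and Wars2 (0.88, adjusted p 0.114) had changes close to those that did, and Iars2 (0.57), Hars2 (0.19) and Ears2 (0.03) had smaller ones. The other probe of Iars2 had 1.22, and that of Wars2 only 0.26.

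Both structural classes took part, with 5 of 9 tested class I members and 5 of 6 class II members called. Leaving out arrays lowered the count of 10 called members to 3 without BAT vehicle array 2 and to 4 without WAT vehicle array 1 or array 2, all mitochondrial, with mitochondrial medians of 0.94, 1.05 and 1.06. Among cytosolic members, Sars (0.62, SE 0.20, adjusted p 0.0545 in limma) and Gars came nearest. Gars measured 7.21 and 6.65 in BAT and 5.95 and 6.0 in WAT (1.93-fold, SE 0.30, adjusted p 0.0548 in limma). Dars, for aspartate, measured 0.32 and 0.21 in BAT and -0.28 and -0.48 in WAT (1.56-fold, SE 0.28, adjusted p 0.133 in limma). Mars1 measured 2.58 and 2.21 in BAT and 1.68 and 1.39 in WAT, with an SE of 2.25 and an adjusted p of 0.827 in limma; with weak areas left out, which removes its stray spot from the shared spread, its SE was 0.19 and its adjusted p 0.0123. Yars was well above background on neither BAT vehicle array and on both WAT vehicle arrays. It measured -3.36 and -4.04 in BAT and -3.09 and -3.41 in WAT, so the arrays overlapped. With the dim BAT signal raised in the way given above, the BAT mean lay at least 1.21-fold lower. This bound is on the means only and does not separate the arrays.

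Most of the machinery around the mitochondrial synthetases rose in brown fat. Of 8 genes for mitochondrial charging and elongation, 8 had a positive change and 6 rose past the threshold, with a median of 1.34. Of all features, 54.9% were positive and 14.3% were called higher. Gfm1, which moves the mitochondrial ribosome along, measured 6.34 and 5.72 in BAT and 3.98 and 4.26 in WAT (3.77-fold, SE 0.35, adjusted p 0.00526 in limma). Tufm, which brings charged tRNA to that ribosome, measured 5.95 and 5.57 in BAT and 4.01 and 3.80 in WAT (3.61-fold, SE 0.32, adjusted p 0.00436 in limma). Tsfm, its exchange factor, rose 2.79-fold (adjusted p 0.00581 in limma). These 3 were each called under 24 of 26 alternatives, the exceptions being the value table and the 13th array added to BAT vehicle. Among cytosolic partners, 1 of 5 elongation factors (Eef1a1, 0.56, adjusted p 0.036 in limma, called under 12 of 26 alternatives) and 0 of 4 scaffold and export genes passed, the second with 0 at an unadjusted p under 0.05. These small counts are near the share of all features. Beside this, the brown adipocyte list averaged 5.60 and 4.59 in BAT and -1.45 and -0.36 in WAT. The skeletal muscle list averaged 1.01 and 5.23 in BAT, with 9 and 10 of 10 genes above background, and -3.27 and -3.18 in WAT, with 7 on each. The part of muscle in the result was not tested.

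Comparisons with untreated wild type used white fat only. They share arrays with the comparisons above, and wild type shares its slide with WAT vehicle array 1 but not with vehicle array 2 or any AP20187 array. Fv2E-PERK WAT with vehicle had 0 called members against wild type in limma, where the smallest adjusted p of a member was 1, and 0 members had an unadjusted p under 0.05. Of all features 8 were called (0.0327%) and 1230 had an unadjusted p under 0.05 (5.03%). The median change was -0.03 for cytosolic members (9 of 20 positive) and 0.13 for mitochondrial members (10 of 15), against 52.6% of all features positive. The largest differences were in Vars (1.02 and 0.48 with vehicle; 1.04, 1.14 and 1.47 in wild type; -0.47), Eprs (1.12 and 1.03 with vehicle; 0.60, 0.73 and 0.58 in wild type; 0.44), Farsa (1.78 and 2.12 with vehicle; 1.72, 1.58 and 1.64 in wild type; 0.30), Wars2 (-1.93 and -1.57 with vehicle; -1.63, -2.71 and -1.80 in wild type; 0.30) and Cars2 (1.29 and 1.15 with vehicle; 1.07, 0.94 and 0.93 in wild type; 0.24). Within the slide that holds wild type and vehicle array 1, the medians were 0.01 and 0.12.

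WAT with AP20187, against wild type, had 1 called member, Farsa, against 8.87% of all features (7.21% higher, 1.66% lower). It measured 2.42, 2.90 and 2.64 with AP20187 and 1.72, 1.58 and 1.64 in wild type (2.0-fold, SE 0.22, adjusted p 0.0325 in limma), with vehicle at 1.78 and 2.12. The AP20187 arrays were above all wild-type arrays, but the adjusted p was 0.0849 without AP20187 array 2, 0.0633 without array 3 and between 0.109 and 0.122 without a wild-type array. With the slide as a fixed block its log2 change was 0.66 and the adjusted p 0.967, and over all alternatives the adjusted p ran between 0.000153 and 0.967. Without AP20187 array 1, 12 members passed. The median change was 0.56 for cytosolic members (17 of 20 positive), 0.47 for mitochondrial members (12 of 15) and 0.16 for all features, of which 60% were positive, and 16 members had an unadjusted p under 0.05, against 28.6% of all features. The cytosolic and mitochondrial medians were 0.24 and 0.19 under quantile scaling, 0.17 and 0.18 when normexp preceded it, and 0.24 and 0.15 when scaled on probes detected on all arrays. The median of all features was then 0.08, 0.05 and -0.16. Relative to it, the cytosolic and mitochondrial medians lay 0.16 and 0.11, 0.11 and 0.13, and 0.40 and 0.31 above, against 0.40 and 0.31 in the scaling used here. With the stricter filter on dim probes they lay 0.27 and 0.18 above the median of all features, and with no filter 0.23 and 0.15 above. Fars2 measured 4.26, 4.80 and 4.33 with AP20187 and 3.78, 3.86 and 3.64 in wild type (1.63-fold, SE 0.19, adjusted p 0.0524 in limma). Wars had a change of 1.14 that did not pass, overlapped with wild-type array 3 and was 0.43 without AP20187 array 1. Mars2 (0.87) did not pass either and measured -2.59, -3.05 and -3.20 in wild type. Mars1 (-2.19) and Rars (-1.14) had negative changes that rest on their stray spots, at 0.41 and 0.50 with weak areas left out. Wild type measured 1.52, 1.59 and 1.63 for Mars1 and -1.09, -1.39 and -1.12 for Rars. Aimp1 (0.79, adjusted p 0.0287 in limma) and Aimp2 (0.65, adjusted p 0.0357 in limma), both scaffolds of the synthetase complex, and 4 of the 5 cytosolic elongation factors rose. As for Farsa, 0 of these genes were called without any 1 wild-type array, without AP20187 array 2, or with quantile scaling, detected probes, the slide as a fixed block or only the arrays compared.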

How the data were processed

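Agilent 1-colour arrays (Cy3) were analysed for 12 assigned samples in 5 groups. A 13th array carries labels of both tissues and was left out of every comparison of the report; alternatives added it to either vehicle group. The authors deposited scanner output of Agilent Feature Extraction 10.7.1.1 (per the submitters' processing notes), whose processed intensity is background-subtracted and detrended within each array, per the file headers. Their value table holds the same intensity within 0.1% for 99.0% to 99.2% of probes per array.

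Levels were log2 of the deposited intensity minus the 75th percentile of the array. Control spots and spots with outlier marks were dropped, and spots of a probe were averaged. Probes were kept if all arrays of 1 or more groups showed them well above background, and the brightest probe stood for a gene. Of 55681 probes, 26056 had 1 gene by RefSeq accession (GRCm38.p6 names), 0 several and 29625 none. Of these, 24472 features were tested in 1 limma 3.58.1 model of 5 group means (R 4.3.3, threshold 0.05). The code was also run on simulated arrays with changes of known size. Their values were drawn independently from normal distributions, without tissue differences or weak areas. That run checks the code and cannot vouch for the model on these arrays. Nothing in the labels says that each array is a separate animal; p-values reflect spread among arrays, which may be technical. The number of arrays limits the precision.

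The arrays lay on 3 slides: wild type with WAT vehicle array 1, WAT vehicle array 2 with the WAT AP20187 arrays, and all BAT. Values are given for members past the threshold and those with the largest absolute change: 6 cytosolic and 4 mitochondrial in each AP20187 against vehicle comparison, 3 and 2 elsewhere, and up to 3 genes per pathway list. The members, these lists and the cell marker lists were chosen with earlier results of these data known. Alternatives covered scaling, background correction, the value table, filters, probe choice, arrays in the fit, slide and replicate blocks, the 13th array, weak areas and each array left out. Areas of weak signal were blocks of 12 rows by 12 columns of spots with a median log2 deviation under -0.3.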

Additional observations from a re-analysis of the deposited data

How the results depend on the processing

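Between arrays with the same replicate number in their titles, the correlations of deviations from the group means ran between -0.22 and 0.11. With groups of 2 or 3 arrays, this cannot tell whether arrays of 1 number came from the same mouse. With 1 array left out at a time, called members ranged between 0 and 1 for AP20187 against vehicle in WAT, 0 and 0 in BAT, 0 and 0 for vehicle against wild type, 0 and 12 for AP20187 against wild type, 3 and 14 for BAT against WAT, and 0 and 0 for the difference of responses. The cytosolic minus mitochondrial median then ranged over 0.17 to 0.37, 0.17 to 0.58, -0.25 to -0.10, 0.06 to 0.24, -0.79 to -0.65 and -0.55 to -0.04. For BAT against WAT (10 called) the count was 6 with the replicate block, 5 with only the arrays compared, 1 with the value table and 0 with the 13th array in BAT vehicle, and the slide as a fixed block could give no value. For AP20187 against wild type (1 called) it was 24 with slide as a random block, 5 with the stricter filter, 4 with the 13th array in WAT vehicle, 3 with no filter, and 0 with the replicate block, slide fixed, only the arrays compared, the value table, quantile, normexp with quantile, detected probes, the 13th array in BAT vehicle or no epididymal arrays. For AP20187 against vehicle in WAT it was 1 with no filter or the 13th array in WAT vehicle. The difference of medians moved in BAT against WAT (main -0.68) to -0.42 with the 13th array in BAT vehicle, -0.79 with normexp and -0.89 with quantile, in WAT (0.29) to 0.14 with the value table and 0.11 with normexp or quantile, against wild type (0.09) to 0.25 with the mean of probes, and for responses (-0.19) to 0.12 with the 13th array in BAT vehicle, -0.47 with the value table and -0.40 with the replicate block. Signs turned for Mars1 and Rars without weak areas (0.46 and 0.46 against vehicle, 0.41 and 0.50 against wild type, 0.18 and 0.01 for responses), without the epididymal arrays (0.49 and 0.74, 0.45 and 0.78, 0.22 and 0.29) and without the stray array (0.57 and 0.51, 0.52 and 0.55, 0.30 and 0.06), while leaving out another array took Mars1 as low as -3.54, -3.59 and -3.81 and Rars as low as -2.13, -2.10 and -2.59. They also turned for Mars1 in BAT against WAT with the replicate block (-0.51), for Dars (-0.15) and Rars2 (-0.01) there with the value table, and for Wars2 without wild-type array 2 (-0.03). In BAT against WAT with the value table, the median of all features was -0.64. Features called for AP20187 against vehicle in WAT were 550, but 0 with the replicate block, the value table, only the arrays compared or the 13th array in BAT vehicle, between 0 and 2256 with 1 array left out, 3 with quantile, 6 with normexp, 5 with slide fixed, 91 with detected probes, 272 without weak areas, 325 with the mean of probes, 1369 with the stricter filter, 1386 with slide random, 1906 with the 13th array in WAT vehicle and 5512 with no filter. Weak areas and the left-out epididymal arrays were chosen after seeing the data. The causes were not tested. For Mars1 and Rars the refits show only that the sign rested on the stray spot, not why that spot was low.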

Other observations

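The 13th array, which the labels give as brown fat in one field and white fat in another, was put in no group of the report. Its values are set beside both vehicle groups without a test. Its 20 cytosolic members had a median difference of -0.02 from the WAT vehicle mean and of -0.39 from the BAT vehicle mean. Its 15 tested mitochondrial members had a median difference of 0.02 from the WAT vehicle mean and of -1.15 from the BAT vehicle mean. Of these genes, 1 cytosolic and 0 mitochondrial members lay above all vehicle arrays of both tissues.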
